A study of Rattus norvegicus with 16 samples.

Results

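Toll-like receptors and the proteins that carry their signal were examined in the L4/L5 dorsal root ganglia (DRG) of the rat after spared nerve injury (SNI). The members were chosen by gene symbol: the receptors Tlr2, Tlr3, Tlr4, Tlr7 and Tlr8, the co-receptors Ly96 and Cd14, the adaptor Myd88, the inhibitor Irak3 and the inflammasome adaptor Pycard. Of these 10 genes, 9 had a probe set (Affy_ID) named for them, 1 each, among the 31042 Affy_IDs tested, and Tlr3 was not analysed here. Ganglia were collected 7 days after surgery from Sprague-Dawley rats, either adults (2 months old, male) or young rats (10 days old at surgery and 17 days old at collection). In SNI the tibial and common peroneal branches of the sciatic nerve are tied and cut and the sural branch is left intact, and in sham surgery the nerve is exposed only. The groups were adult sham (n = 3 arrays), adult contralateral (n = 3), adult SNI (n = 3), young sham (n = 3), young contralateral (n = 2) and young SNI (n = 2), 16 arrays in all. Contralateral ganglia came from the uninjured side of SNI animals, so they are a control within injured animals and not uninjured animals. Each array held the RNA of a pool, of 3 adult or 4 young rats, so the errors and p-values below measure the spread between pools. In the main fit that spread was estimated for each Affy_ID as 1 variance shared by the 6 groups.

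Toll-like receptors recognise microbial products and molecules released from damaged cells. Tlr2 and Tlr4 act at the cell surface, where Tlr4 binds lipopolysaccharide only together with the co-receptor Ly96 (MD-2) and is handed it by Cd14, while Tlr3, Tlr7 and Tlr8 sense RNA inside endosomes. All of them except Tlr3 signal through Myd88 to IRAK kinases and NF-kB, Irak3 (IRAK-M) restrains that signal in macrophages, and Pycard (ASC) joins inflammasome sensors to caspase 1. In the nervous system these genes are best known in macrophages and microglia, although sensory neurons have also been described to use some of them.

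The promoters of 3 members are shown because Tlr4 passed the test in adults against either control, Tlr8 was the endosomal receptor that passed against the contralateral side, and Pycard had the greatest log2 difference of the 9 members there. The sequences are from RefSeq on the rat build GRCr8 and run 5′ to 3′ along the gene's strand over the 250 bases before its start. Capitals mark GAGGAA or its reverse TTCCTC, a 6-base core bound by PU.1, a transcription factor of myeloid cells, searched on both strands.
Tlr4: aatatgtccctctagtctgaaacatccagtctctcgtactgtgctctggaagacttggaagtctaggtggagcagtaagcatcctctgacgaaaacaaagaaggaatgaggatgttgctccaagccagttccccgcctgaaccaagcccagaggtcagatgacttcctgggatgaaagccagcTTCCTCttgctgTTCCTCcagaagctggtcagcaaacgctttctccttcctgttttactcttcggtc
Tlr8: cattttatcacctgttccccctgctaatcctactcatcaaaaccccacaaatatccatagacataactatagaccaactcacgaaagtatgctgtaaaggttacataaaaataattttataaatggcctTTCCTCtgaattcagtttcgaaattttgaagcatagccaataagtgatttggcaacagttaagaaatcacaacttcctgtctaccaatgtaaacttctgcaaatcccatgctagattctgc
Pycard: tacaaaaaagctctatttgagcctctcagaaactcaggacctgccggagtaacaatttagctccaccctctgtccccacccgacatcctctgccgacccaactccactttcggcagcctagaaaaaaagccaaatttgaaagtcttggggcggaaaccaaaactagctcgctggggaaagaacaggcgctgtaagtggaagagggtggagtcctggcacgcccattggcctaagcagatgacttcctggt
The Tlr4 sequence lies at chr5:85160997-85161246 on the + strand, the Tlr8 sequence at chrX:30708476-30708725 on the + strand and the Pycard sequence at chr1:192033420-192033669 on the - strand. The core stood 2 times in the Tlr4 sequence, with its first base 67 and 55 bases before the start, and 1 time in that of Tlr8, 121 bases before it. It was not found in the Pycard window. Of the 9 member promoters in the reference table, 5 held it (Tlr3, Tlr4, Tlr7, Tlr8 and Cd14), and so did 23.3% of all 33469 promoters of the same length. These 9 include Tlr3 and lack Ly96, which had no entry, so they are not the same 9 genes as the measured members. A match is a description of the letters, and binding was not measured.

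The arrays report log2 GC-RMA values, a background-corrected and normalised fluorescence of each Affy_ID, and differences below are on the log2 scale. Array medians lay between 5.13 and 5.47 and lower quartiles between 2.45 and 2.61. The Tlr2 value was below the lower quartile of its array in 16 of 16 arrays, that of Tlr4 in 13 and that of Tlr8 in 12, so the control values of these receptors sat near the lowest that the arrays give and a fold change from them need not equal the change in RNA. Young SNI replicate 2 stood apart, with a mean over 4 central glia genes of 11.95 against 2.42 to 3.72 in the other arrays and a mean over 7 sensory neuron genes of 11.60 against 12.82 to 13.28. Young SNI replicate 1 was apart in other genes. Its mean over 2 neutrophil genes was 4.37 against 2.09 to 3.08 in the other arrays. It also had the highest values of the endogenous ligands S100a8 (11.72) and S100a9 (12.64). Xist, which is expressed in females, was between 2.32 and 2.57 in the 9 adult arrays. In young rats it was 11.87, 2.36 and 9.77 in sham, 2.35 and 11.51 in contralateral and 11.84 and 12.05 in SNI arrays, so sex differed with age and, among the young, with group.

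In adult rats SNI was followed by higher Tlr4 than in either control, and by higher Tlr8, Ly96 and Pycard than in the contralateral DRG. Against sham 1 of the 9 members passed the limma test, Tlr4, where 0.480% of all Affy_IDs passed in either direction. Against the contralateral side 4 of 9 passed, all higher, where 1.03% of all Affy_IDs passed, and 0 of 9 passed once the array number was a block. All 9 differences were above 0 against each control, with medians of 0.62 and 0.71 on the log2 scale, where the medians over all Affy_IDs were -0.02 and -0.04. For 5 members (Tlr4, Tlr8, Ly96, Myd88 and Irak3) the 3 adult SNI arrays lay above all 6 adult control arrays, which held for 3.17% of all Affy_IDs. Both comparisons use the same SNI arrays, so they are not independent of each other. In whole ganglia, a difference in the number of cells of a type and a difference in RNA per cell cannot be told apart.

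Tlr4 (1387982_at), the lipopolysaccharide receptor, had log2 values of 3.22, 3.03 and 2.60 in the adult SNI arrays. Its values were 2.07, 2.15 and 2.12 in sham and 2.12, 2.13 and 2.17 in contralateral arrays. The SNI arrays were apart from all controls, and they also varied more, 2.95 ± 0.32 (SD, n = 3) against 2.11 ± 0.04 in sham and 2.14 ± 0.03 in contralateral DRG. The main fit uses 1 variance shared by the 6 groups, so its SE understates the spread of the adult SNI arrays. The difference was 0.84 against sham, a fold of 1.79 (SE 0.12, 95% interval 0.58 to 1.09, limma adjusted p = 0.0133), and 0.81 against the contralateral side (SE 0.12, interval 0.56 to 1.07, adjusted p = 0.0100). The array number was also fitted as a block across all groups of an age, sham included. Such a fit is not a paired test of SNI and contralateral arrays alone. A paired test of that kind was not run, and the main fit treats the arrays of both sides as independent. With this block the limma adjusted p against the contralateral side was 0.0518. Fitted on adult arrays alone it was 0.0590 against sham and 0.0517 against the contralateral side. The call against sham was also lost without adult sham replicate 1 (0.0630) or 2 (0.0564) or adult SNI replicate 2 (0.0698), and that against the contralateral side without contralateral replicate 1 (0.0611) or adult SNI replicate 2 (0.0520).

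Tlr8 (1382078_at), a receptor for RNA in endosomes, was 2.66, 3.20 and 3.35 in adult SNI arrays. It was 2.60, 2.40 and 2.36 in sham and 2.35, 2.35 and 2.38 in contralateral arrays. The lowest SNI array was just above the highest sham array, while the other SNI arrays were well apart. The SD was 0.36 in SNI, 0.13 in sham and 0.02 in contralateral DRG, so the shared variance understates the spread of the SNI arrays here as well. Against the contralateral side Tlr8 rose by 0.71, a fold of 1.64 (SE 0.14, interval 0.41 to 1.01, adjusted p = 0.0374), and against sham the difference was 0.62 (SE 0.14, interval 0.31 to 0.92, adjusted p = 0.108). With the block the adjusted p against the contralateral side was 0.133, fitted on adult arrays alone it was 0.136, and that call held in 5 of the 16 fits that left out 1 array. It was lost without adult sham replicate 2 or 3, any contralateral array of either age, adult SNI replicate 2 or 3, or young sham replicate 1 or 2, at adjusted p from 0.0511 to 0.158. The fit without adult SNI replicate 1, the lowest of the SNI arrays, gave an adjusted p of 0.000929 against sham.

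The other receptors passed against neither adult control. Tlr7 (1382531_at), also an endosomal RNA receptor, was 2.87, 2.90 and 2.75 in adult SNI, 2.69, 2.75 and 2.74 in sham and 2.70, 2.73 and 2.84 in contralateral arrays. Its groups overlapped, with a difference of 0.11 against sham (interval -0.26 to 0.48, adjusted p = 1) and 0.08 against the contralateral side (interval -0.29 to 0.45, adjusted p = 0.830). Tlr2 (1392280_at), which recognises lipoproteins, was 1.83, 2.05 and 1.85 in adult SNI, 1.78, 1.85 and 1.84 in sham and 1.83, 1.83 and 1.87 in contralateral arrays. Only adult SNI replicate 2 was apart, and the differences of 0.09 against sham (interval -0.04 to 0.21, adjusted p = 0.870) and 0.07 against the contralateral side (interval -0.06 to 0.19, adjusted p = 0.732) did not pass.

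**Figure D1:**
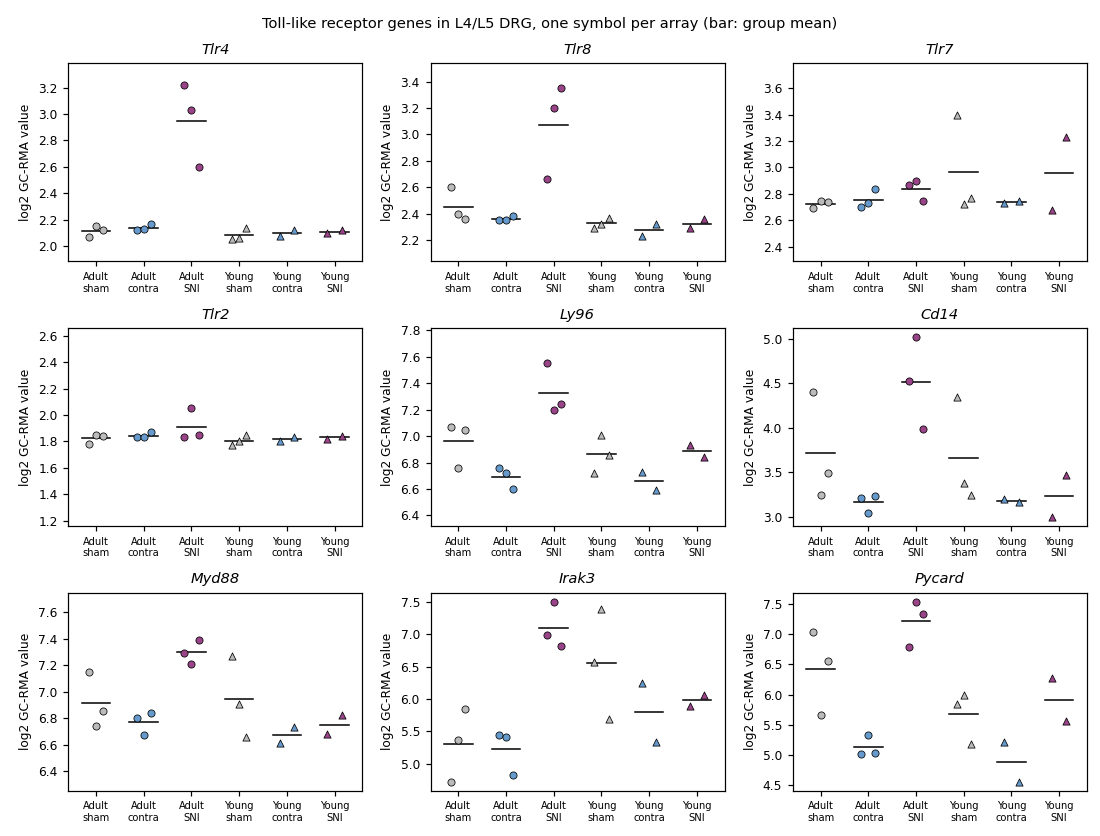
Log2 GC-RMA value (vertical axis) of the 9 measured members, 1 panel each, in the 6 groups (horizontal axis), with a point for each array and a bar at each group mean. The adult SNI points of Tlr4, from 2.60 to 3.22, lie above all other points of that panel, while the young SNI points, 2.10 and 2.12, lie among the young controls.

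Of the co-receptors, Ly96 rose against the contralateral side, while the greater difference of Cd14 did not pass the test. Ly96 (1382277_at), the partner without which Tlr4 does not respond to lipopolysaccharide, was 7.55, 7.20 and 7.24 in adult SNI arrays. It was 7.07, 6.76 and 7.05 in sham and 6.76, 6.72 and 6.60 in contralateral arrays. Adult SNI arrays were all above both controls, and 2 of the 3 sham arrays were above every contralateral array. The difference was 0.64 against the contralateral side, a fold of 1.56 (SE 0.11, interval 0.39 to 0.89, adjusted p = 0.0250), and 0.37 against sham (interval 0.12 to 0.62, adjusted p = 0.315). The contralateral call was lost with the block (0.0693), on adult arrays alone (0.0711) and with a variance that follows intensity. It was also lost without any 1 of the adult contralateral arrays (0.0950, 0.0877 and 0.124), adult SNI replicate 2 (0.0595) or replicate 3 (0.0600).

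Cd14 (1368490_at), which passes lipopolysaccharide to Tlr4 and Ly96, was 4.53, 5.02 and 3.99 in adult SNI arrays. It was 4.40, 3.25 and 3.49 in sham and 3.21, 3.05 and 3.24 in contralateral arrays. Adult sham replicate 1 lay above the lowest SNI array, and the SDs of 0.52 in SNI and 0.61 in sham were large beside 0.10 in contralateral DRG. The differences of 0.80 against sham (interval 0.02 to 1.58, adjusted p = 0.658) and 1.35 against the contralateral side (interval 0.57 to 2.13, adjusted p = 0.140) did not pass, although all SNI arrays were above all contralateral arrays. With array weights the adjusted p against the contralateral side was 0.0224.

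Myd88 (1374468_at), the adaptor shared by most Toll-like receptors, was 7.29, 7.21 and 7.39 in adult SNI, 7.15, 6.74 and 6.85 in sham and 6.80, 6.67 and 6.84 in contralateral arrays. The SNI arrays were above all controls, although adult sham replicate 1 came close to the lowest of them. The difference of 0.38 against sham (interval 0.07 to 0.70, adjusted p = 0.492) and of 0.53 against the contralateral side (interval 0.21 to 0.84, adjusted p = 0.152) did not pass. Irak3 (1380336_at), the inhibitor of the IRAK complex, was 6.99, 7.51 and 6.82 in adult SNI, 4.72, 5.36 and 5.85 in sham and 5.45, 5.41 and 4.82 in contralateral arrays. The groups were well apart in adults, and the young sham arrays, which enter the shared variance of the fit, ranged from 5.69 to 7.39. The difference was 1.80 against sham, a fold of 3.47 (SE 0.42, interval 0.87 to 2.73, adjusted p = 0.132), and 1.88 against the contralateral side, a fold of 3.68 (SE 0.42, interval 0.95 to 2.81, adjusted p = 0.0742). Fitted on adult arrays alone Irak3 passed against the contralateral side (adjusted p = 0.0497), as it did without young sham replicate 2 (0.0371) or 3 (0.0361).

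Pycard (1389873_at), the inflammasome adaptor, separated the adult controls from each other as well. It was 6.79, 7.54 and 7.34 in adult SNI, 7.03, 5.67 and 6.56 in sham and 5.02, 5.33 and 5.04 in contralateral arrays. Sham and contralateral arrays did not overlap, and adult sham replicate 1 lay above the lowest SNI array. Against the contralateral side Pycard rose by 2.09, a fold of 4.27 (SE 0.36, interval 1.31 to 2.88, adjusted p = 0.0209), and against sham the difference was 0.80 (interval 0.02 to 1.59, adjusted p = 0.659). The contralateral call was lost with the block (0.0779) and without any 1 of the contralateral arrays (0.105, 0.0647 and 0.0937), adult SNI replicate 2 (0.103) or replicate 3 (0.0833).

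**Figure D2:**
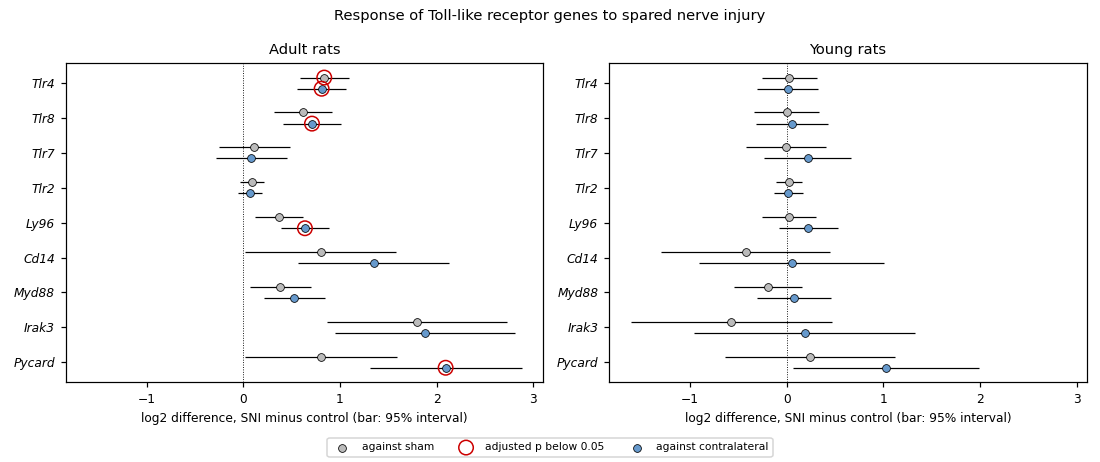
Log2 difference of SNI from each control (horizontal axis, with 95% intervals from limma) for the 9 members (vertical axis) in adult and young rats, where grey points are against sham, blue points against the contralateral side and red rings mark an adjusted p below 0.05. Tlr4 passed against both adult controls, Tlr8, Ly96 and Pycard against the adult contralateral side only, and none in young rats.

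Macrophage genes were higher in the same arrays. The mean over 17 macrophage genes was 7.50 to 8.12 in adult SNI arrays, 6.28 to 7.02 in sham and 5.86 to 6.10 in contralateral arrays, and the sham and contralateral arrays were apart as they were for Pycard. Against the contralateral side 9 of the 17 rose and none fell, where 1.03% of all Affy_IDs passed. Among the 9 were C1qb, a complement subunit made by macrophages (a log2 difference of 3.81), and the lysosomal protein Cd68 (2.56). Against sham 0 of 17 passed in limma, although 12 had an unadjusted p under 0.05, where 7.33% of all Affy_IDs did, and all 17 differences were above 0 (median 1.27). Of the defining markers Cx3cr1 (2.03 to 2.34), Cd163 (2.24 to 2.97) and Itgam (2.54 to 3.03) stayed near the lowest values in every array. Means over 7 T cell genes (2.42 to 2.72) and 2 B cell genes (1.80 to 1.90) stayed near the bottom of the scale in all 16 arrays. The T cell mean hides Cd4, which was 2.59, 4.12 and 2.93 in adult SNI arrays and 2.01 to 2.10 in all others. Cd4 did not pass in limma (adjusted p = 0.151 against adult sham and 0.106 against the contralateral side). It was the only 1 of the 7 T cell genes with a difference above 0 against either adult control. None of the lists for neutrophils, T cells, B cells, sensory neurons, satellite glia, myelinating Schwann cells, central glia, fibroblasts and endothelium had a gene that passed in limma in any comparison. Among them fibroblast genes had the highest median against the adult contralateral side (0.88). There 3 of 5 had an unadjusted p under 0.05, where 9.83% of all Affy_IDs did. The part of the macrophage genes in the results for the Toll-like receptor genes was not tested.

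**Figure D3:**
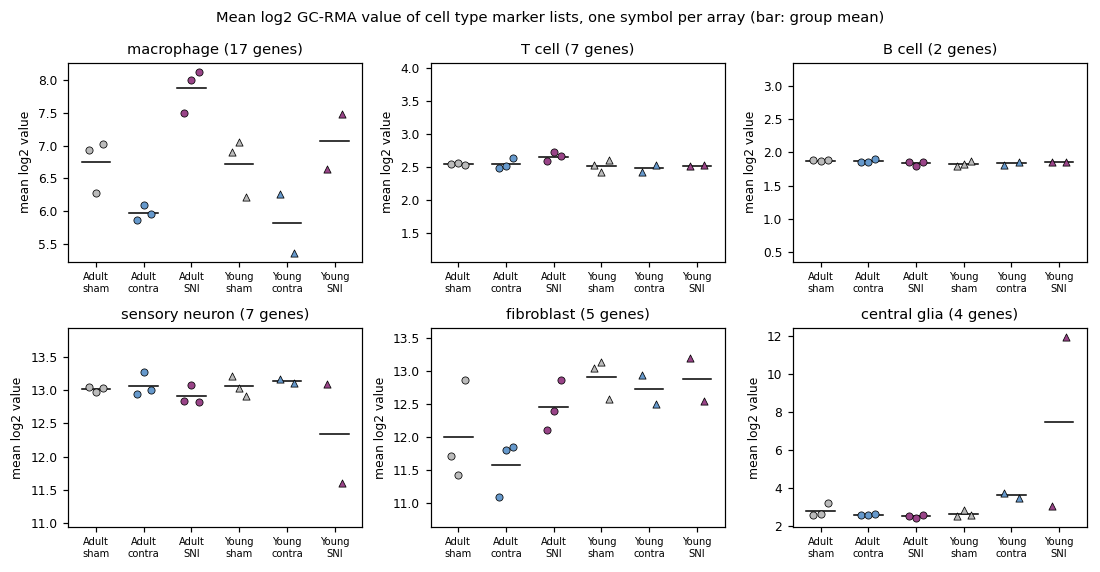
Mean log2 GC-RMA value (vertical axis) of the marker genes of 6 cell types, 1 panel each, in each array, by group (horizontal axis), with a point for each array and a bar at each group mean. Adult SNI arrays lie between 7.50 and 8.12 for macrophage genes, above all other adult arrays, and young SNI replicate 2 lies at 11.95 for central glia genes.

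In young rats none of the 9 members passed against either control. Against sham 0 had even an unadjusted p under 0.05, where 5.91% of all Affy_IDs did and 0.0161% passed after adjustment. Against the contralateral side 1 of 9, Pycard, had an unadjusted p under 0.05, where 5.94% of all Affy_IDs did and 0.00966% passed. For 0 of 9 members did both young SNI arrays lie above all 5 young controls, which held for 1.08% of all Affy_IDs. Young SNI had 2 arrays, so the intervals are wider than in adults. Tlr2, Tlr4 and Tlr8 lay below the lower quartile of the array in every young array, so a small response of these receptors could not be detected.

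Tlr4 was 2.10 and 2.12 in young SNI arrays, 2.05, 2.06 and 2.14 in sham and 2.08 and 2.12 in contralateral arrays. The 7 arrays of the 3 groups overlapped, and the difference was 0.03 against sham (interval -0.26 to 0.31, adjusted p = 0.988) and 0.01 against the contralateral side (interval -0.30 to 0.32, adjusted p = 1). Tlr8 was 2.29 and 2.36 in young SNI, 2.29, 2.32 and 2.37 in sham and 2.23 and 2.32 in contralateral arrays. Ly96 was 6.93 and 6.84 in young SNI, 6.72, 7.01 and 6.86 in sham and 6.73 and 6.59 in contralateral arrays. Neither gene separated the SNI arrays from sham, with differences of 0.00 for Tlr8 (interval -0.34 to 0.34) and 0.02 for Ly96.

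Pycard was 6.27 and 5.56 in young SNI, 5.84, 6.00 and 5.19 in sham and 5.21 and 4.56 in contralateral arrays. As in adults the contralateral arrays were low, although young sham replicate 3 fell among them. The difference was 1.03 against the contralateral side (SE 0.44, interval 0.07 to 1.99, unadjusted p = 0.0382, adjusted p = 0.798) and 0.24 against sham (interval -0.64 to 1.12). Irak3 was 5.90 and 6.06 in young SNI, 6.58, 7.39 and 5.69 in sham and 6.25 and 5.34 in contralateral arrays, with the SNI arrays inside the range of the controls. Its difference was -0.57 against sham (interval -1.62 to 0.47) and 0.19 against the contralateral side. Cd14 was 3.00 and 3.47 in young SNI, 4.35, 3.38 and 3.25 in sham and 3.20 and 3.17 in contralateral arrays, and Myd88 was 6.68 and 6.82 in SNI, 7.27, 6.91 and 6.66 in sham and 6.61 and 6.73 in contralateral arrays. In both genes the highest young array was sham replicate 1. Tlr7 was 2.68 and 3.23 in SNI, 3.40, 2.72 and 2.77 in sham and 2.73 and 2.75 in contralateral arrays, so that 1 SNI array, replicate 2, and 1 sham array stood above the rest. Tlr2 stayed between 1.77 and 1.85 in all young arrays.

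The macrophage mean was 6.65 and 7.48 in young SNI arrays, 6.22 to 7.05 in sham and 5.37 to 6.26 in contralateral arrays. The higher SNI value was that of replicate 2, the array with central glia transcripts, and the other lay inside the range of sham. None of the 17 macrophage genes passed in limma against either young control. Against sham 1 had an unadjusted p under 0.05, where 5.91% of all Affy_IDs did, and 13 differences were above 0 (median 0.445). Against the contralateral side 11 had an unadjusted p under 0.05, where 5.94% of all Affy_IDs did, and all 17 differences were above 0 (median 1.56).

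Whether the response differed between the ages was tested directly, as the adult difference from the mean of both controls minus the same difference in young rats. Of the 9 members 0 passed in limma, where 0.0966% of all Affy_IDs passed, and 6 had an unadjusted p under 0.05, where 8.00% did. The difference in response was 0.81 for Tlr4 (SE 0.16, interval 0.46 to 1.15, adjusted p = 0.105), 0.64 for Tlr8 (interval 0.23 to 1.05, adjusted p = 0.396) and 2.03 for Irak3 (SE 0.57, interval 0.78 to 3.29, adjusted p = 0.362). These 3 intervals lie above 0, but after adjustment over all Affy_IDs an age difference in response was not shown for any member. Tlr4 passed without adult SNI replicate 3 (0.000690) and Tlr8 without adult SNI replicate 1 (0.00603). Tlr4 also passed without young SNI replicate 1 (0.0268), a fit in which the array with central glia transcripts is the only young SNI array and the spread comes from the other groups. For the 17 macrophage genes 0 passed and 3 had an unadjusted p under 0.05.

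Injured DRG were also compared between the ages. Tlr4 and Tlr8 were higher in adult SNI than in young SNI on the arrays, 2 of 9 members, where 2.64% of all Affy_IDs passed. In young SNI arrays Tlr4 (2.10 and 2.12) and Tlr8 (2.29 and 2.36) lay below the lower quartiles (2.50 and 2.58). The arrays therefore give little information on the level of these receptors in young SNI. The difference was 0.84 for Tlr4 (SE 0.13, interval 0.56 to 1.13, adjusted p = 0.0102) and 0.75 for Tlr8, a fold of 1.68 (SE 0.16, interval 0.41 to 1.08, adjusted p = 0.0347). In both genes all 3 adult SNI arrays lay above both young SNI arrays. These are the arrays on which the genes had passed, and the share of all Affy_IDs separated in this way was not counted. Without young SNI replicate 2, the array with central glia transcripts, the adjusted p was 0.0578 for Tlr4 and 0.145 for Tlr8, with 1 young array left that is taken to vary as the remaining groups do. The Tlr8 call was also lost without any 1 of the adult contralateral or young contralateral arrays or adult SNI replicates 2 and 3 (0.0508 to 0.103). Myd88 (0.55, adjusted p = 0.0947), Ly96 (0.45, adjusted p = 0.0897), Pycard (1.31, adjusted p = 0.110), Cd14 (1.28, adjusted p = 0.114) and Irak3 (1.13, adjusted p = 0.219) had higher means in adult SNI and did not pass. Between adult and young sham DRG 0 of 9 passed, where 0.622% of all Affy_IDs did, and 1 had an unadjusted p under 0.05, where 12.3% did. That gene was Irak3, with a difference of -1.24 (SE 0.42, interval -2.18 to -0.31, adjusted p = 0.246). Xist was near the lowest values in all adult arrays and high in both young SNI arrays, so age and sex cannot be told apart between the injured groups. Of the young sham arrays, replicate 2 had a Xist value as low as the adults (2.36) and an Irak3 value of 7.39. Replicates 1 and 3 had Xist values of 11.87 and 9.77 and Irak3 values of 6.58 and 5.69. Irak3 was 4.72 to 5.85 in the adult sham arrays. The part of sex in the Irak3 difference was not tested.

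The rest of the pathway was counted from 8 lists of known partners, in which 73 of 89 genes were measured. Measured means here that an Affy_ID was named for the gene. Some stayed near the lowest values in all arrays, such as Nos2 (1.23 to 1.28), Cd40 (1.68 to 1.77) and Ifnb1 (2.01 to 2.15). In such genes a small difference could not be detected, and they enter the counts and medians below. Against adult sham 0 of 73 passed in limma and 11 had an unadjusted p under 0.05, where 0.480% and 7.33% of all Affy_IDs did. Against the adult contralateral side 4 rose and none fell, where 1.03% of all Affy_IDs passed, and 18 had an unadjusted p under 0.05, where 9.83% did. The 4 were the chemokine Ccl2, the transcription factor Irf8, Unc93b1, which carries endosomal Toll-like receptors to their compartment, and Ly86 (MD-1), the partner of the Tlr4 homologue Cd180. None of the 15 adaptors and kinases, 9 inhibitors, 8 inflammasome partners or 11 endogenous ligands passed against either adult control. Of the 8 other Toll-like receptors only Tlr1 was measured, at a difference of 0.38 against sham and 0.33 against the contralateral side, neither passing. Tlr1 was 2.55, 3.52 and 2.73 in adult SNI arrays and 2.51 to 2.69 in adult controls, so only adult SNI replicate 2 was well apart. The medians over the 73 genes were 0.05 and 0.18. In young rats 0 of 73 passed in each comparison with a control, where 0.0161% (sham) and 0.00966% (contralateral) of all Affy_IDs did. An unadjusted p under 0.05 was found for 3 against sham and 2 against the contralateral side, where 5.91% and 5.94% of all Affy_IDs had one. The difference in response between the ages passed for 0 and had an unadjusted p under 0.05 for 9, where 0.0966% and 8.00% of all Affy_IDs did.

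Ccl2, which attracts monocytes, was 11.00, 11.50 and 10.88 in adult SNI arrays, 9.69, 9.97 and 9.90 in sham and 9.61, 9.78 and 9.31 in contralateral arrays. The SNI arrays were above every adult control, with a difference of 1.56 against the contralateral side (SE 0.24, adjusted p = 0.0141) and of 1.27 against sham (adjusted p = 0.0528). Irf8, a transcription factor of macrophages, was 3.83, 5.47 and 4.51 in adult SNI, 2.69, 2.36 and 3.67 in sham and 2.31, 2.35 and 2.39 in contralateral arrays. It rose by 2.25 against the contralateral side (SE 0.43, adjusted p = 0.0341). Ly86 was 6.19, 7.39 and 6.90 in adult SNI, 6.66, 5.45 and 5.16 in sham and 5.17, 4.99 and 4.88 in contralateral arrays, so adult sham replicate 1 overlapped SNI. It rose by 1.81 (SE 0.37, adjusted p = 0.0471), and Unc93b1 by 0.57 (SE 0.12, adjusted p = 0.0451). With the block the adjusted p was 0.0498 for Ccl2, 0.106 for Irf8, 0.150 for Ly86 and 0.0736 for Unc93b1. Of the 16 fits that left out 1 array, Ccl2 passed in 13 and was lost without contralateral replicate 1 (0.0674) or 3 (0.0693) or adult SNI replicate 2 (0.0639). Irf8 passed in 8 and was lost without any 1 of the contralateral arrays of either age, adult SNI replicate 2 or 3 or young sham replicate 1 (0.0538 to 0.143). Ly86 passed only without adult sham replicate 1 or 3 or adult SNI replicate 1, and Unc93b1 only without adult SNI replicate 1.

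Between injured DRG of both ages, 4 of the 73 genes were higher and 1 lower in adults, where 2.64% of all Affy_IDs passed in either direction. Ccl2 was 9.33 and 8.37 in young SNI arrays, below all adult SNI arrays, with a difference of 2.28 (SE 0.27, adjusted p = 0.00283). Ly86 (1.78, adjusted p = 0.0483), the caspase Casp4 (1.29, adjusted p = 0.0490) and Lgmn, a lysosomal protease that processes endosomal receptors (0.60, adjusted p = 0.0372), were also higher. Traf3, an adaptor for the interferon branch, was lower in adults, with 8.56, 7.92 and 7.90 in adult SNI arrays and 9.29 and 10.03 in young SNI arrays (-1.53, SE 0.24, adjusted p = 0.0103). Between the sham groups Traf3 differed by -0.73 (unadjusted p = 0.00547, limma adjusted p = 0.171) and Ly86 by 1.03 (unadjusted p = 0.0183, limma adjusted p = 0.276). Without young SNI replicate 2 the adjusted p of Traf3 was 0.0756, of Lgmn 0.270, of Ly86 0.171 and of Casp4 0.298. Of the 16 fits that left out 1 array, Ly86 and Casp4 passed in 3 each, Lgmn in 6, Traf3 in 15 and Ccl2 in 16.

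**Figure D4:**
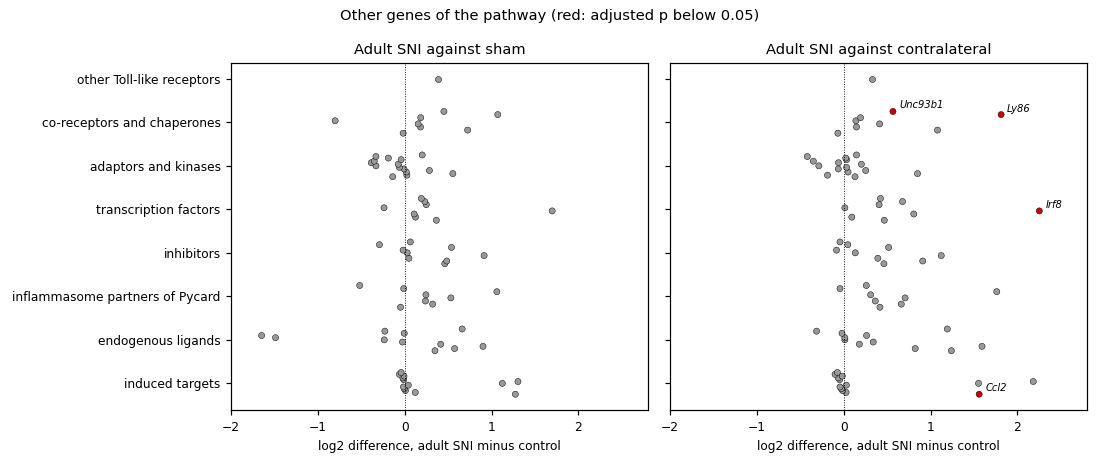
Log2 difference of adult SNI from sham (left) and from the contralateral side (right) on the horizontal axis for the 73 other genes of the pathway, by list on the vertical axis, where each point is 1 gene and red marks an adjusted p below 0.05. The red points are Ccl2, Irf8, Ly86 and Unc93b1 against the contralateral side, and no point is red against sham.

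The genes whose pattern was most like that of Tlr4 were found over all 16 arrays, as the root mean square difference between log2 values, each centred on its own mean, among 14217 other genes. The nearest were Arl11 (0.159), Slc18a2 (0.166) and Tgif1 (0.167), where the values of Tlr4 itself spread by 0.348 around their mean. No test was made of this likeness.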

How the data were processed

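RNA of L4/L5 DRG was hybridised to 16 Affymetrix rat genome arrays. Per the authors, the deposited values are log2 after GC-RMA, rounded to 2 decimals, and 2 outlier arrays (1 young contralateral and 1 young SNI) had been removed. They were not analysed here. No reads were counted, so the number of pools and the array background limit the precision.

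Values were compared with limma 3.58.1 (R 4.3.3), with 1 model of 6 group means over all 16 arrays and moderated variances (1.24 prior degrees of freedom). P-values were two-sided and were adjusted by Benjamini-Hochberg over 31042 Affy_IDs within each comparison, after 57 controls were left out, with a threshold of 0.05. The fit was tested on simulated data. Affy_IDs with the symbol of exactly 1 gene numbered 20826, and the 9 measured members matched the current reference by gene ID. The members and gene lists were chosen with earlier results of these data known. Members were always named, with tests against both adult controls and wherever they passed. From the pathway lists, in each comparison up to 6 passing genes with the smallest adjusted p were named, and a gene was represented by its Affy_ID of highest mean. A member that passed against both adult controls had its 3 nearest genes named.

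Arrays of 1 number deviated together in adult SNI and contralateral DRG, with correlations of 0.449, 0.445 and 0.362 over Affy_IDs, and both sides came from SNI animals. For sham they were -0.041, 0.132 and 0.200 with adult SNI, so the number did not pair sham. The labels do not state the pairing. The alternatives were quantile normalization, a filter on low values (18540 Affy_IDs with log2 above 4 in 2 or more arrays), separate fits for each age, a variance that follows intensity, array weights, the array number as a block, and leaving out each array. Python 3.11.15, numpy 2.4.6, pandas 2.3.3 and matplotlib 3.10.9 made the tables of promoters and the figures.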

Additional observations from a re-analysis of the deposited data

How the results depend on the processing

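The counts of passing members were refitted under each alternative. Against adult sham, 1 of 9 became 0 with each age on its own, with the filter and with the replicate block, and 0 to 2 when 1 array was left out. Against the adult contralateral side, 4 of 9 became 2 with each age on its own, 7 with array weights and 0 with the replicate block, and 0 to 5 when 1 array was left out. The difference in response between ages, 0 of 9, became 0 to 1 when 1 array was left out. Adult against young SNI, 2 of 9, became 0 with the filter and 0 with array weights, and 0 to 3 when 1 array was left out. The filter removed Tlr2, Tlr4, Tlr7 and Tlr8 from the test, so Tlr4 and Tlr8 could not be counted there. Against the contralateral side it left Ly96 and Pycard called and added Irak3 (0.0266). For the other changes the cause was not tested. The count was 0 of 9 in all 22 alternatives for young SNI against sham, in all 22 against the contralateral side and in all 20 for adult against young sham. With the replicate block, Tlr4, Tlr8, Ly96 and Pycard against the contralateral side had adjusted p of 0.0518, 0.133, 0.0693 and 0.0779. Against sham, where the numbers did not pair the arrays, the adjusted p of Tlr4 with the replicate block was 0.0637. The block was not fitted for adult against young SNI or sham, since the ages share no animals. Tlr2 against the contralateral side, which did not pass, turned from 0.07 to -0.003 without adult SNI replicate 2 and reached 0.107 in the other fits that left out 1 array. Of all other refits of single genes, 467 kept their direction and side of the threshold, 138 lost the call and 8 gained it. The 467 include refits of members that had not passed in the main fit and so had no call to lose. The 138 all fell among results that had passed, of members and of pathway genes. With 2 or 3 pools a group and receptor values near the lowest on the arrays, small differences could not be detected.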
